A study of Mus musculus with 20 samples.

Results

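The mitochondrial chromosome of the mouse was examined in iWAT (inguinal white adipose tissue, a fat pad under the skin of the groin) by taking every gene that the NCBIM37 (mm9) annotation places on chromosome M under a symbol starting with mt-. There are 37 such genes among the annotation, 13 for mRNAs, 2 for rRNAs and 22 for tRNAs, and 36 of them were among the 36611 genes that could be summed from the table of Salmon values. The exception was mt-Nd4l, which was not analysed here, so that 12 mRNAs were measured. RNA came from 20 female C57BL/6 mice, 6 months old, in 4 groups of 5. They were fed for 15 weeks on a diet with 10.5% (low fat diet, LFD) or 58% of its energy from fat (high fat diet, HFD). By the paper's methods the carbohydrate was mainly corn starch in the LFD and mainly sucrose in the HFD, so the diets differed in more than fat. Knockout mice (Ad-Tmem120a-/-) carried Tmem120a alleles with loxP sites around exons and an Adipoq-Cre transgene, in which the adiponectin promoter drives Cre in mature adipocytes, while other cells of the tissue keep the gene. The controls, which the labels call wild type, were littermates with the same floxed alleles and no Cre, so both genotypes were floxed. The libraries were made from total RNA after depletion of ribosomal RNA with a kit that keeps strand, and the values deposited are estimated counts of read pairs and TPM (a level per transcript length, scaled to the same total in each library).

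Mitochondrial DNA codes for core subunits of the respiratory chain and of the ATP synthase, and for the rRNAs and tRNAs needed to translate them inside the organelle. Both strands are copied as long transcripts that span many genes, and these are cut at the tRNAs that lie between the mRNAs and rRNAs. The mRNAs then differ in stability, and the proteins Lrpprc and Slirp hold many of them. White fat holds few mitochondria in comparison with muscle or brown fat, and its mitochondria take part in fatty acid handling and in building the fat stores.

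The sequences of NCBIM37 show how tightly these genes are packed, which matters for reading their values. The gene mt-Tl1, a leucine tRNA, lies between the large rRNA and mt-Nd1 with no base to spare on the plus strand (chrM:2676-2750), and is shown in capitals with 10 bases of its neighbours on each side:
mt-Tl1: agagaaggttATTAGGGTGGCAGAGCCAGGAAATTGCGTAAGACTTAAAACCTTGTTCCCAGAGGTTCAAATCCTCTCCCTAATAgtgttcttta
The coding sequences of mt-Atp8 and mt-Atp6 share 43 bases (capitals, within chrM:7915-7981, plus strand) with no tRNA between them, so the values of these genes are not independent:
mt-Atp8/mt-Atp6: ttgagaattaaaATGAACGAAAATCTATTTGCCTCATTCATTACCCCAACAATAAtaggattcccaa
mt-Nd4l and mt-Nd4 share 7 bases, and mt-Nd5 and mt-Nd6 share 14 bases on opposite strands. Of the 37 genes, 28 are written on the plus strand and 9, which are mt-Nd6 and 8 tRNAs, on the minus strand. It is not given in the sources used here whether strand was used in the quantification, so reads of mt-Nd6 and antisense reads from the opposite transcript cannot be told apart.

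The 4 mRNAs at the extremes of the diet comparison described further on begin as follows, with the start codon in capitals. These codons differ from the usual ATG in mt-Nd5 and mt-Nd2, as the mitochondrial code allows. All lie on the plus strand, mt-Nd5 at chrM:11742-11771, mt-Nd4 at chrM:10167-10196, mt-Nd2 at chrM:3914-3943 and mt-Co1 at chrM:5328-5357:
mt-Nd5: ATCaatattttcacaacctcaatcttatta
mt-Nd4: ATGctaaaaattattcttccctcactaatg
mt-Nd2: ATAaatcctatcacccttgccatcatctac
mt-Co1: ATGttcattaatcgttgattattctcaacc
The end of mt-Nd4 (chrM:11521-11544) holds only the first base of a stop codon, here in capitals, which polyadenylation is known to complete, whereas mt-Nd5 (chrM:13542-13565) ends in a whole one:
mt-Nd4 end: aactaattacaggcctgacaataT
mt-Nd5 end: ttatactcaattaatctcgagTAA

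A stretch of chromosome 1 (chr1:24618374-24623027, 4654 bases) is a copy of mitochondrial DNA that is 99.94% identical to it. The nuclear gene Gm10222, annotated there on the minus strand (chr1:24619243-24619539), has the same 297 bases as mt-Nd4l (chrM:9877-10173, plus strand), shown here with the start codon in capitals because a read pair within it cannot be given to either gene:
mt-Nd4l: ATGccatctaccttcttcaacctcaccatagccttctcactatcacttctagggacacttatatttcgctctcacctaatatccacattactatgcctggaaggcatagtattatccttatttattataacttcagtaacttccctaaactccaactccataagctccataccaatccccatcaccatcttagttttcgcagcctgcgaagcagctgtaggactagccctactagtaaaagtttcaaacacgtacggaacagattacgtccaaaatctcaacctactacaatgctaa
Gm10222 held between 7669 and 60750 estimated counts per library. A second gene of the same stretch, Gm10925, shares a run of 588 bases with mt-Atp6 and held between 34907 and 179873. Both were left out of the sums below unless stated.

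A library held between 54605101 and 92387737 estimated counts, and the smallest value of any of the 12 mitochondrial mRNAs was 3201 counts (mt-Nd6), so counting error was small beside the spread between mice. The 10 white adipocyte markers (Adipoq, Lep, Plin1 and others) were all present, with a summed level of 14670.0 to 32150.0 TPM over the 20 libraries. Tmem120a had a mean of 85.4 ± 28.4 TPM (SD, n = 5) in control and 41.5 ± 21.9 in knockout mice on LFD, and of 119 ± 44.5 and 51.6 ± 26.7 on HFD. Its fall, fitted to counts and not to TPM, was 1.61 ± 0.34 (SE) on the log2 scale on LFD (edgeR, adjusted p = 0.929). On HFD it was 1.67 ± 0.29 (adjusted p = 0.173). The TPM ranges of the genotypes overlapped on both diets. In estimated counts without scaling for depth they did not overlap on HFD (6177 to 15572 in control, 1761 to 4841 in knockout mice). On LFD these counts overlapped (3856 to 11556 and 954 to 4126). A nuclear non-coding RNA, AC157822.1, took from 3.24% to 18.1% of the counts of a library. In each of the 4 groups the library with the largest count share of it had the lowest share of mitochondrial mRNA and the highest Tmem120a level. These libraries were control mouse 4 on LFD, control mouse 11 on HFD, knockout mouse 7 on LFD and knockout mouse 21 on HFD. In TPM, AC157822.1 was instead the lowest of its group in mouse 4 (61965, others 88909 to 143952) and mouse 11 (93346, others 120572 to 159729). The same held for mouse 7 (17310, others 122704 to 171552), and mouse 21 had 105658 (others 92155 to 137170). The rank of these libraries thus depends on the measure, and the fits below use the count share. The part of AC157822.1 in the results was not tested beyond the fits given below.

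The 12 mitochondrial mRNAs together took 13.6%, 11.4%, 14.3%, 8.22% and 12.8% of the estimated counts in control mice 1 to 5 on LFD. In control mice 11 to 15 on HFD they took 5.66%, 8.26%, 6.47%, 9.46% and 9.18%. The share was thus lower on HFD in most controls, but mouse 4 on LFD lay below mice 12, 14 and 15 on HFD. In knockout mice the shares were 12.4%, 9.08%, 11.2%, 15.8% and 14.1% on LFD (mice 6 to 10) and 8.56%, 9.70%, 10.5%, 9.69% and 5.13% on HFD (mice 17 to 21). The groups overlapped here too in counts, since mouse 7 on LFD lay below 3 of the HFD mice. In shares of TPM the diets did not overlap in knockout mice. The lowest LFD share was 19.36% (mouse 7) and the highest HFD share 17.89% (mouse 19). Control mice overlapped in TPM as well, with 15.59% in mouse 4 on LFD and 16.12% in mouse 14 on HFD. The overlap in knockout mice thus depended on the measure. The medians of the count shares were 12.8% and 8.26% in control and 12.4% and 9.69% in knockout mice. On both diets the range of the count shares of the knockout mice overlapped that of the controls. In bulk tissue, fewer mitochondria or fewer cells rich in them and less RNA per mitochondrion cannot be told apart.

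**Figure D1:**
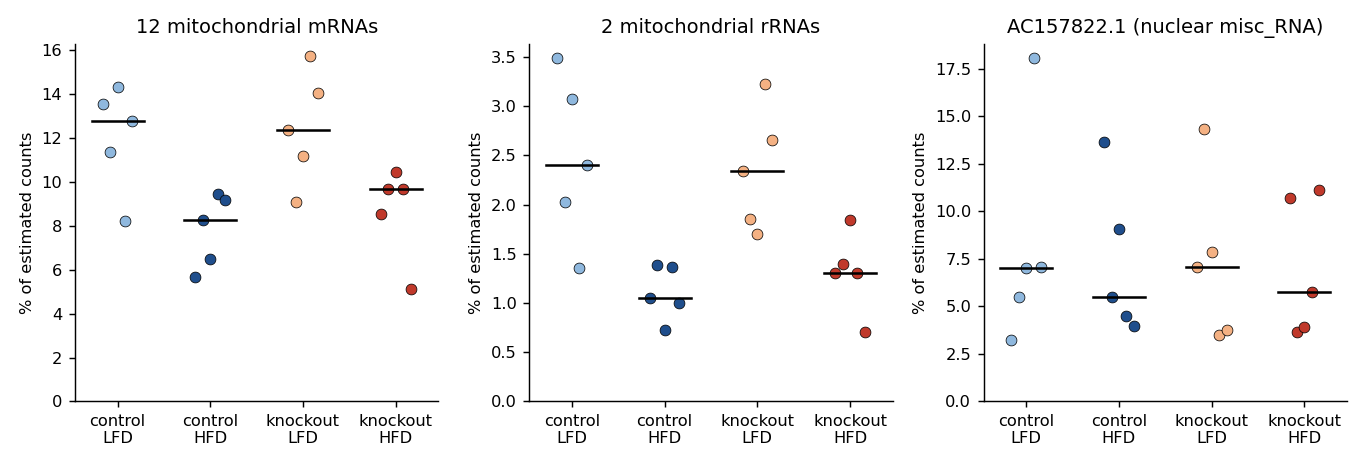
Share of the estimated counts of each library (vertical axes, %) on the 12 measured mitochondrial mRNAs, on the 2 mitochondrial rRNAs and on AC157822.1, by group, with 1 point per mouse and the median as a line. The median mRNA share was 12.8% and 12.4% on LFD against 8.26% and 9.69% on HFD, and the lowest point of each group in the first panel is the highest of that group in the third.

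What remained of the 2 mitochondrial rRNAs after depletion took a median of 2.41% of the counts on LFD and 1.05% on HFD in controls, and 2.34% on LFD and 1.31% on HFD in knockout mice. Their values depend on how well depletion worked in each library, which was not measured. The 22 tRNAs were nearly invisible, with 14 of them at 0 in all 20 libraries and no more than 5 counts for any tRNA in any library. A count of 0 allows up to 3 counts per library (counting error only), so neither a level nor a change of the tRNAs was detectable in these libraries. The tRNAs are 59 to 75 bases long, shorter than the reads given in the paper's methods. Whether RNAs this short were kept was not measured. The gene mt-Tm, a methionine tRNA, was the only one to pass the filter of 0.5 TPM, in the control diet comparison alone, where its log2 difference was -0.32 ± 1.29 (SE, edgeR, adjusted p = 0.926).

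Levels per length ran over more than an order of magnitude among the mRNAs of the plus strand, which are cut from the same long transcripts. Cytochrome c oxidase subunits led, with mt-Co1 at a median of 41917 TPM over the 20 libraries (33074 to 53048), mt-Co2 at 31113 and mt-Co3 at 23721. The ATP synthase subunits mt-Atp6 and mt-Atp8 followed at 21020.0 and 18585. Ranges of neighbours in this order overlapped widely, and mt-Co2 or mt-Co1 was the first in every library. mt-Nd1, a subunit of complex I that passes electrons from NADH to ubiquinone, had 15102 TPM and mt-Cytb of complex III 10556. The other subunits of complex I lay lower, with mt-Nd4 at 3374, mt-Nd2 at 3275 and mt-Nd3 at 2363. The lowest were mt-Nd5 at 1016 and mt-Nd6, the one mRNA of the minus strand, at 729 (239.8 to 2932). Each gene of this last group lay below mt-Cytb in all libraries, as ranks 8 to 12 show. The large rRNA, mt-Rnr2, was found at a median of 18146 TPM and the small one, mt-Rnr1, at 1819. By counts, mt-Co1 alone held between 37.3% and 59.7% of the mitochondrial mRNA pool.

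**Figure D2:**
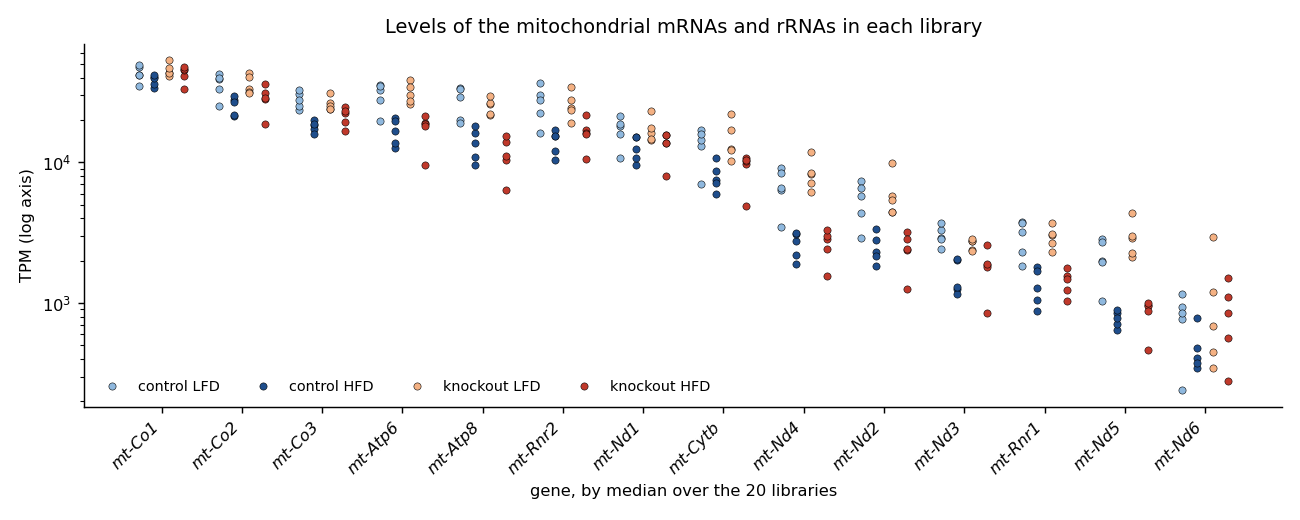
Levels (vertical axis, TPM on a log scale) of the 12 mitochondrial mRNAs and 2 rRNAs in each of the 20 libraries, ordered by the median over all libraries and coloured by group. Levels fall from a median of 41917 TPM for mt-Co1 to 729 for mt-Nd6, and the HFD points of mt-Nd4 and mt-Nd5 lie below the LFD points of the same genotype.

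Diet was compared within each genotype to ask how a high fat diet alters mitochondrial transcripts of iWAT. In control mice, 8 of the 12 mRNAs and both rRNAs fell on HFD (edgeR's quasi-likelihood test on TMM-scaled gene sums, adjusted p under 0.1 over 15311 genes, n = 5 per group). Of all genes tested, 9.32% were called and 4.9% were called lower. The other 4 mRNAs had estimates of the same sign that did not pass. The median log2 fold change of the 12 mRNAs was -0.98, beside a median of -0.04 over all genes, and single values ran from -1.64 to -0.33. TPM ranges of the diets did not overlap, with HFD lower, for 6 of these 14 genes and for 1.46% of all genes.

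The largest falls among the mRNAs were those of mt-Nd5, mt-Nd4 and mt-Nd2, all subunits of complex I. mt-Nd5 was measured at 2841, 1981, 1961, 1035 and 2705 TPM in control mice 1 to 5 on LFD, and at 640.3, 849.7, 714, 898 and 783 in mice 11 to 15 on HFD. Every HFD mouse lay below every LFD mouse. The log2 fold change was -1.64 ± 0.28 (SE), 3.12-fold lower (edgeR, adjusted p = 0.00778). For mt-Nd4, the levels were 9186, 6339.9, 6552, 3452 and 8394 TPM on LFD and 1905, 2774, 2201, 3110.4 and 3168 on HFD. These did not overlap either, and the change was -1.54 ± 0.32 (adjusted p = 0.0195). mt-Nd2 stood at 7432, 4399, 5771, 2914 and 6592 TPM on LFD and 1839.96, 2305, 2152, 2792 and 3342 on HFD, where only mouse 15 on HFD passed mouse 4 on LFD, and fell by 1.34 ± 0.32 (adjusted p = 0.0345). mt-Nd3 was measured at 3333, 2438, 3683, 2892 and 2866 TPM on LFD and 1267, 2039, 1155, 2039.8 and 1304 on HFD, with no overlap, and fell by 1.16 ± 0.22 (adjusted p = 0.0132). The estimates of mt-Nd1 (-0.62 ± 0.28, adjusted p = 0.234) and mt-Nd6 (-0.90 ± 0.34, adjusted p = 0.157) did not pass.

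Subunits of the ATP synthase fell as well, mt-Atp8 by 1.17 ± 0.29 (edgeR, adjusted p = 0.0425) and mt-Atp6 by 1.06 ± 0.26 (adjusted p = 0.042). No tRNA, where the long transcript is cut, lies between these genes and their ends overlap. They count as 2 of the 12 mRNAs here but are not independent. Among cytochrome c oxidase subunits mt-Co3 fell by 0.85 ± 0.20 (adjusted p = 0.0315), while mt-Co2 (-0.72 ± 0.25, adjusted p = 0.118) and mt-Co1 (-0.33 ± 0.25, adjusted p = 0.502) did not pass. mt-Co1 was measured at 41882, 41952, 47530.4, 34956 and 49030.5 TPM on LFD and 33594, 40643, 35828, 39921.5 and 41671 on HFD, and these ranges overlapped. mt-Cytb fell by 0.90 ± 0.29 and lay at the edge of the threshold (adjusted p = 0.098). Without control mouse 1, 2, 3 or 5 on LFD or mouse 11, 12, 13 or 14 on HFD it was no longer called (log2 fold change -0.96 to -0.76, adjusted p = 0.121 to 0.202). Its call was also lost with no filter on low values, total counts, scaling to genes outside the mitochondrial chromosome, both limma fits and all 20 libraries in 1 fit (-0.89 to -0.71, adjusted p = 0.107 to 0.149), so that it held under 8 of 22 alternatives. mt-Atp6 was not called without control mouse 13 on HFD (-0.97, adjusted p = 0.107). The rRNAs fell by 1.35 ± 0.28 (mt-Rnr1, adjusted p = 0.0207) and 1.17 ± 0.30 (mt-Rnr2, adjusted p = 0.0493). mt-Rnr2 was not called without control mouse 3 on LFD (-1.08, adjusted p = 0.113), mouse 13 (-1.04, adjusted p = 0.116) or mouse 15 (-1.13, adjusted p = 0.105) on HFD.

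Knockout mice, which share no library with the controls, gave falls of the same genes. Here 5 of 12 mRNAs and 1 of 2 rRNAs were called lower on HFD over 15705 genes, of which 9.4% were called and 4.85% called lower, and all 6 were among the 10 called in control mice. The median log2 fold change of the mRNAs was -0.70, beside 0.00 over all genes, with a range from -1.93 to -0.15. TPM ranges did not overlap, with HFD lower, for 6 of the 14 genes and for 2.94% of all genes.

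mt-Nd5 was found at 2911, 2118, 2256, 4399 and 2995 TPM in knockout mice 6 to 10 on LFD and at 962, 949, 997, 874 and 463 in mice 17 to 21 on HFD. All 5 HFD values lay below the lowest LFD value. The log2 fold change was -1.93 ± 0.31 (SE), or 3.8-fold lower (edgeR, adjusted p = 0.00514). mt-Nd4 went from 8274, 6206, 7129.5, 11916.5 and 8339.5 TPM on LFD to 2873, 3012, 3295, 2418 and 1545 on HFD. The change was -1.79 ± 0.30 (adjusted p = 0.00662), again with no overlap. mt-Nd2, with 5771, 4465, 4441, 9848 and 5375 TPM on LFD and 3207, 2849, 2395, 2432 and 1264 on HFD, fell by 1.47 ± 0.33 (adjusted p = 0.0263). The other called genes were mt-Rnr1 (-1.15 ± 0.22, adjusted p = 0.012), mt-Atp8 (-1.09 ± 0.30, adjusted p = 0.0567) and mt-Atp6 (-0.93 ± 0.28, adjusted p = 0.0733).

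Calls for the ATP synthase genes lay near the threshold in the knockout. mt-Atp8 was not called under 5 of 22 alternatives and mt-Atp6 under 8. Without knockout mouse 6 or 10 on LFD or mouse 18 or 20 on HFD mt-Atp8 was not called (log2 fold change -1.08 to -0.97, adjusted p = 0.102 to 0.118). mt-Atp6 was not called without mouse 6, 9 or 10 on LFD or mouse 17, 18 or 20 on HFD (-0.96 to -0.85, adjusted p = 0.112 to 0.14). mt-Co1 had 43098, 41412.5, 43098, 53048 and 47147 TPM on LFD and 41409, 45732, 46217, 47470.5 and 33074 on HFD. Its estimate was -0.15 ± 0.25 (edgeR, adjusted p = 0.816), the smallest of the 14 in both genotypes.

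**Figure D3:**
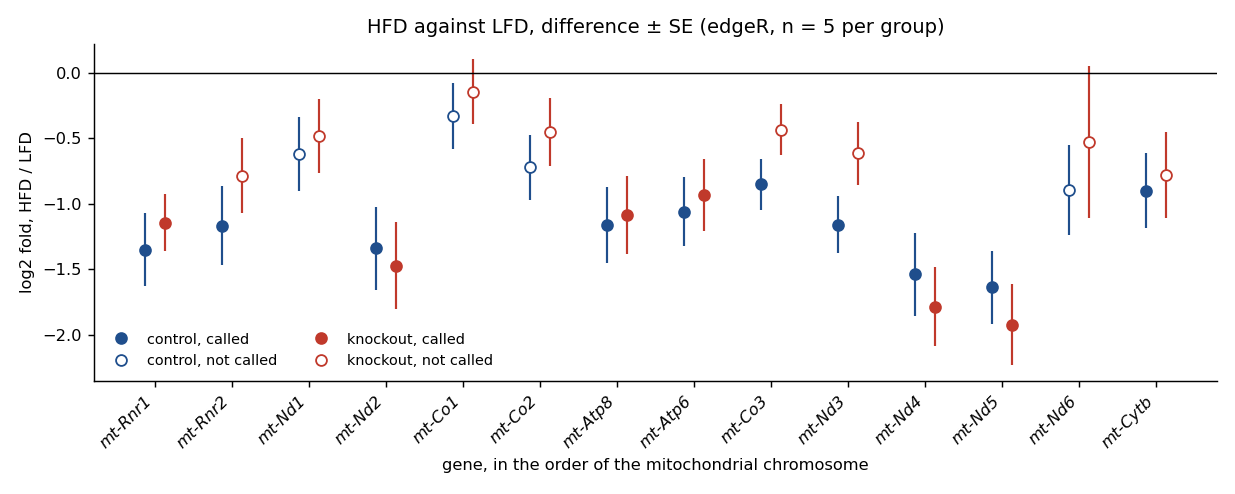
Log2 fold change of HFD against LFD (vertical axis) for the 12 mRNAs and 2 rRNAs in the order of the mitochondrial chromosome, in control (blue) and knockout mice (red), with the SE as a bar and filled points for adjusted p under 0.1 (edgeR, n = 5 per group). mt-Nd5 and mt-Nd4 lie lowest in both genotypes, at -1.64 and -1.54 and at -1.93 and -1.79, and mt-Co1 lies nearest to 0.

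Across the 12 mRNAs the log2 fold changes of the 2 genotypes had a Pearson r of 0.93 and a Spearman rho of 0.95. The points share a chromosome and, apart from mt-Nd6, a long precursor. Base composition and length of each gene are the same in both genotypes, so this is a description of 12 genes and not of independent units. Against the log2 mean TPM of the gene, r was 0.59 in control and 0.45 in knockout mice (rho 0.60 and 0.56), against the GC percentage 0.51 and 0.31 (rho 0.60 and 0.54), and against gene length -0.15 and -0.40 (rho -0.09 and -0.17). The order did not follow the chromosome, since mt-Nd2, with a large fall, lies between mt-Nd1 and mt-Co1, with small ones.

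The makeup of the mitochondrial mRNA pool differed between diets. mt-Co1 took 37.3%, 43.8%, 42.9%, 47.1% and 41.8% of the mitochondrial mRNA counts in control mice on LFD and 55.03%, 52.98%, 55.3%, 49.5% and 51.2% on HFD. In knockout mice it took 42.4%, 44.5%, 44.8%, 39.9% and 42.1% on LFD and 51.4%, 52.5%, 51.0%, 55.2% and 59.7% on HFD. In neither genotype did the diets overlap. mt-Nd5 moved the other way, from 2.71%, 2.20%, 1.90%, 1.48% and 2.45% to 1.03%, 1.16%, 1.07%, 1.204% and 1.02% in control mice. In knockout mice it went from 3.07%, 2.36%, 2.56%, 3.39% and 2.86% to 1.16%, 1.10%, 1.15%, 0.999% and 0.817%. These groups did not overlap either, and mt-Nd4 had medians of 4.30% and 2.35% in control and 5.01% and 2.13% in knockout mice, on LFD and HFD.

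In a test chosen after the data were seen, the counts were scaled to the geometric mean of the 12 mitochondrial mRNAs and the whole table was fitted again. This mean weights each gene alike and differs from the summed counts used for the shares above. The 12 genes define the scale, so their changes must average near 0, with the smallest falls shown as rises. The fit therefore restates the order found in the diet comparison and is not separate evidence. On this scale most nuclear genes lie above 0, with a median log2 fold change over all genes of 0.96 in control and 0.95 in knockout mice, so that 68% and 53.3% of all genes were called. The adjustment over all genes is lenient with so many calls. Relative to this mean, mt-Co1 was higher on HFD by 0.67 ± 0.17 (SE, edgeR, adjusted p = 0.0056) in control and 0.75 ± 0.21 (adjusted p = 0.0179) in knockout mice. mt-Nd5 fell by 0.59 ± 0.17 (adjusted p = 0.0116) and 1.04 ± 0.21 (adjusted p = 0.0106). mt-Nd4 fell by 0.52 ± 0.17 (adjusted p = 0.0216) and 0.91 ± 0.21 (adjusted p = 0.0116). A single further mRNA was called in each genotype, mt-Nd1 upward in control mice (0.39 ± 0.15, adjusted p = 0.0399) and mt-Nd2 downward in knockout mice (-0.58 ± 0.22, adjusted p = 0.0531). The share of mt-Nd1 in the summed mitochondrial mRNA counts overlapped between diets in control mice. It was 9.98%, 8.20%, 8.21%, 7.025% and 7.95% on LFD and 7.30%, 8.14%, 7.72%, 9.48% and 9.27% on HFD. Neither rRNA was called against this mean, with estimates from -0.27 to 0.09.

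**Figure D4:**
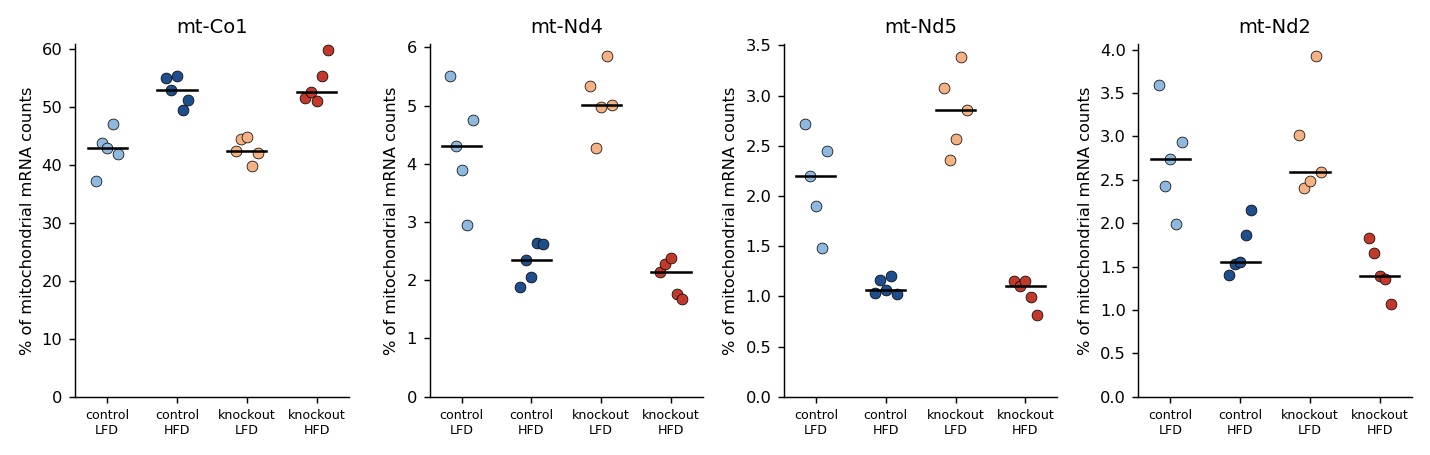
Share of the mitochondrial mRNA counts (vertical axes, %) held by mt-Co1, mt-Nd4, mt-Nd5 and mt-Nd2 in each mouse, by group, with the median as a line. On HFD mt-Co1 lies between 49.5% and 59.7%, above all LFD mice (37.3% to 47.1%), and mt-Nd5 between 0.817% and 1.204%, below all LFD mice (1.48% to 3.39%).

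The 2 genes annotated on the nuclear copy were lower on HFD too. Reads of mt-Nd4l and mt-Atp6 can be counted under them because of the shared sequence, so this is not separate evidence and shows nothing about nuclear expression. Gm10222, with the sequence of mt-Nd4l, stood at 8893, 6332, 7397, 2512 and 7949 TPM in control mice on LFD and at 1660.1, 2641, 1784, 3062 and 3413 on HFD. Its log2 fold change was -1.56 ± 0.30 (SE, edgeR, adjusted p = 0.0154), and -1.72 ± 0.28 (adjusted p = 0.00514) in knockout mice. These values lie close to those of mt-Nd4, which follows mt-Nd4l on the chromosome. Gm10925 fell by 1.12 ± 0.22 (adjusted p = 0.0181) and 0.91 ± 0.27 (adjusted p = 0.069), and adding it to mt-Atp6 left the values of that gene at -1.07 ± 0.26 (adjusted p = 0.0414) and -0.93 ± 0.28 (adjusted p = 0.0769).

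Markers of other cells differed between diets and are given beside these results. Of all genes, 4.9% were called lower on HFD in control and 4.85% in knockout mice. The summed level of 18 skeletal muscle genes lay between 78.6 and 4571 TPM in control mice on LFD and between 55.1 and 138 on HFD, and 13 of the 18 were called lower. The highest of these summed levels was that of control mouse 5 on LFD, without which 9 mitochondrial genes were called and the mRNA median was -0.96. In knockout mice it lay between 76.0 and 1429 TPM on LFD and between 128 and 2020.0 on HFD, and 0 of 18 were called in either direction (edgeR). Of 8 brown and beige fat markers, 3 were called lower on HFD in control mice (summed level 105 to 785 TPM on LFD, 67.6 to 254 on HFD), and 0 in knockout mice (66.7 to 511 and 97.2 to 806). The part of these cells in the mitochondrial results was not tested. No marker on either list was at 0 throughout a group. White adipocyte markers summed to between 16710.0 and 22350.0 TPM on LFD and between 22230.0 and 32150.0 on HFD in control mice, and to between 14670.0 and 19620.0 and between 19410.0 and 30240.0 in knockout mice, with 1 and 2 of 10 called higher. Of all genes, 676 of 15311 and 714 of 15705 were called higher.

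With the log2 share of AC157822.1 as a covariate 13 mitochondrial genes were called lower in control and 12 in knockout mice. This fit called 3427 of 15311 and 3443 of 15705 genes in all, against 1427 and 1476 without the covariate. Without the 5 libraries that had 10% or more of their counts on AC157822.1, 11 and 4 mitochondrial genes were called lower. Here 1158 of 15290 and 570 of 15578 genes were called in all. The number called thus changed over the whole table as well. In the last fit for knockout mice mt-Nd5, mt-Nd4, mt-Nd2 and mt-Rnr1 kept their call, and mt-Atp8 and mt-Atp6 lost it.

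Nuclear genes for mitochondrial gene expression are given by role, beside the 9.32% of all genes called in control and 9.4% in knockout mice. Of 11 genes for transcription, 1 was called lower on HFD in control mice, Tfb2m, a factor that melts the promoter (-0.33 ± 0.10, edgeR, adjusted p = 0.0915), and of 10 tested in knockout mice 1 was, Mterf3 (named Mterfd1 in the annotation), a repressor of mitochondrial transcription (-0.52 ± 0.16, adjusted p = 0.0807). Tfam, which packs mitochondrial DNA and starts transcription, had estimates of -0.10 ± 0.12 and 0.31 ± 0.19 in control and knockout mice (adjusted p = 0.693 and 0.411). Polrmt, the RNA polymerase, had -0.11 ± 0.26 and -0.10 ± 0.36 (adjusted p = 0.86 and 0.93). None of 12 replication genes was called by edgeR in either genotype, with Polg, the DNA polymerase, at -0.05 ± 0.21 and -0.03 ± 0.15 and the helicase Twnk (Peo1) at -0.30 ± 0.20 and -0.16 ± 0.22.

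Among 21 genes for RNA processing, stability and decay, 0 were called in either genotype. Lrpprc had -0.25 ± 0.12 and -0.06 ± 0.12 (edgeR, adjusted p = 0.253 and 0.851), and Slirp, its partner in binding mitochondrial mRNAs, -0.46 ± 0.20 and 0.09 ± 0.22 (adjusted p = 0.218 and 0.88). The median of the list was -0.09 and 0.04. Of 13 translation genes only the ribosome recycling factor Gfm2 was called, in control mice (-0.38 ± 0.11, adjusted p = 0.0705). Of 76 mitochondrial ribosomal proteins tested, Mrpl48 was called lower in control mice (-0.54 ± 0.10, adjusted p = 0.00972) and Mrpl54 higher in knockout mice (0.59 ± 0.18, adjusted p = 0.0867).

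Of 8 regulators of mitochondrial biogenesis tested, 3 were called in each genotype, all lower on HFD, where 4.9% of all genes were called lower in control and 4.85% in knockout mice. Whether this list differs from the others was not tested. Ppargc1b, a coactivator of nuclear genes for mitochondria, fell by 1.11 ± 0.30 in control (edgeR, adjusted p = 0.0569) and by 1.17 ± 0.31 in knockout mice (adjusted p = 0.0463). Pprc1, a related coactivator, fell by 0.96 ± 0.17 (adjusted p = 0.00913) and 1.01 ± 0.25 (adjusted p = 0.0347). Ppargc1a, the best known of the family, fell by 0.76 ± 0.15 in control mice (adjusted p = 0.0151) and had -0.44 ± 0.31 in knockout mice (adjusted p = 0.482). Nrip1, a corepressor of oxidative genes, fell by 0.57 ± 0.14 in knockout mice (adjusted p = 0.0421) and had -0.39 ± 0.22 in control mice (adjusted p = 0.346). The levels of the 3 coactivators were low, with means of 0.763 to 5.44 TPM per group.

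The nuclear partners of these mRNAs, 87 respiratory chain and ATP synthase subunits found by symbol, were added after the values of the mitochondrial genes were seen. Of 83 tested, 5 were called lower and 1 higher on HFD in control mice, with a median log2 fold change of -0.37, and 0 lower and 2 higher in knockout mice, with a median of 0.07. These counts lie near or below the shares of all genes called (9.32% and 9.4%). Most estimates had 1 sign in control mice, where 77 of the 83 were negative beside a median of -0.04 over all genes, against 29 in knockout mice. The genes called lower were Cox6c, Cox7a1, Ndufa6, Ndufs1 and Uqcrh, and Cox7a1 is also among the brown and beige fat markers. Cox6c of complex IV fell by 0.56 ± 0.17 (edgeR, adjusted p = 0.0797) and Ndufs1 of complex I by 0.46 ± 0.13 (adjusted p = 0.0619) in control mice, and their estimates in knockout mice were -0.11 ± 0.14 and -0.05 ± 0.13. Cox4i2, the form of subunit 4 linked to low oxygen, rose in both, by 1.09 ± 0.28 (adjusted p = 0.051) and 1.23 ± 0.27 (adjusted p = 0.0252). The difference between genotypes in the diet effect was called for 0 of the 83 (edgeR), with a median of 0.42 and 1 negative estimate. Between genotypes 0 were called on either diet. The median of knockout against control was -0.39 on LFD, with 81 of 83 negative, and 0.03 on HFD, with 37 negative. The shift of the list as a set was not tested.

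The effect of the knockout was compared on each diet to ask whether loss of Tmem120a in adipocytes alters mitochondrial transcripts. On HFD none of the 14 mRNAs and rRNAs was called by edgeR among 15228 genes, of which 0.00657% were called, and 0 by DESeq2 or limma. Only mt-Nd6 had an unadjusted p under 0.05. Estimates of the mRNAs ran from -0.22 to 0.83, with a median of 0.12 and SEs of 0.19 to 0.38. This median was -0.01 without knockout mouse 19, 0.28 without knockout mouse 21 and 0.00 with offsets for GC content. The TPM ranges of the genotypes overlapped for every one of the 14 genes, as they did for most genes (0.69% did not overlap). mt-Nd5 had 0.09 ± 0.26 and mt-Co1 0.17 ± 0.23 (edgeR, adjusted p = 0.999 for both). Differences of several SEs could go uncalled here, as that of Tmem120a did.

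On LFD none of the 14 genes was called among 15717 by edgeR, of which 0.00636% were called, and 0 by DESeq2 or limma. No gene of the 14 had an unadjusted p under 0.05 in edgeR, and 1 did in DESeq2. The mRNAs ran from -0.34 to 0.47 with a median of -0.05, and the sign of this median changed with the scaling (0.03 with total counts, 0.08 with limma on log2(TPM + 1), -0.14 with offsets for GC content). The genotypes overlapped in TPM for all 14 genes, and 1.4% of all genes did not overlap. mt-Nd5 had 0.38 ± 0.31 (adjusted p = 0.933) and mt-Nd3 -0.34 ± 0.16 (adjusted p = 0.929).

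mt-Nd6 varied most between mice of 1 group. It was found at 346, 403, 377, 477 and 781 TPM in control mice on HFD and at 568, 1517, 846, 1111.5 and 277 in knockout mice on HFD. The knockout mice spanned the range of the controls on both sides, and the log2 fold change was 0.83 ± 0.38 (SE, edgeR, adjusted p = 0.999). On LFD the values were 1167, 773, 935, 239.8 and 853 TPM in control and 685, 347, 447, 2932 and 1203 in knockout mice. Mouse 9 decided the direction there, since the estimate of 0.47 ± 0.56 became -0.29 without it.

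**Figure D5:**
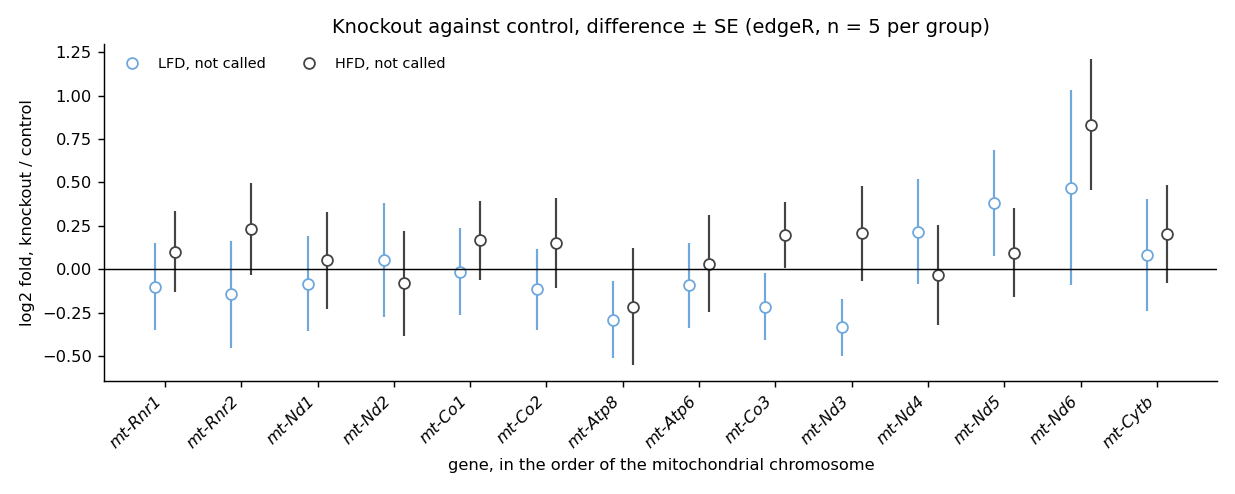
Log2 fold change of knockout against control (vertical axis) for the 12 mRNAs and 2 rRNAs in the order of the mitochondrial chromosome, on LFD (blue) and HFD (dark), with the SE as a bar and open points because none had an adjusted p under 0.1 (edgeR, n = 5 per group). Most bars cross 0, and mt-Nd6 on HFD lies highest at 0.83.

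Whether the knockout acted differently on the 2 diets was tested as an interaction over all 20 libraries. Of 15574 genes tested, 0% were called by edgeR. None of the 14 mitochondrial genes had an unadjusted p under 0.05, and 0 were called by DESeq2 or limma. The estimates of mt-Nd5 and mt-Nd4 were -0.31 ± 0.41 and -0.27 ± 0.44, and those of mt-Nd3 and mt-Co3 were 0.52 ± 0.34 and 0.40 ± 0.25 (adjusted p = 1.0 for each). The calls made in 1 genotype and not in the other, such as mt-Nd3, mt-Co3, mt-Cytb and mt-Rnr2, are therefore not shown to differ between genotypes.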

How the data were processed

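The estimated counts and TPM values were made by the authors with Salmon (0.13.1, from the submitters' processing notes) on Ensembl transcripts of NCBIM37 (mm9), and deposited for 96533 transcripts in 20 libraries without scaling between libraries. STAR 2.5.3 is also listed. The transcripts were summed per gene with GENCODE vM1 (94334 matched), and the gene sums of the estimated counts were rounded. A gene entered a comparison when its level averaged 0.5 TPM or more in those libraries, and was tested with edgeR 4.0.16 (TMM, quasi-likelihood, Benjamini-Hochberg, adjusted p under 0.1) in R 4.3.3. DESeq2 (1.42.0 here, the tool but not the version of the study's methods) and limma 3.58.1 on log2(TPM + 1) or log2(TPM + 0.1) were alternatives. The fits were run on counts simulated gene by gene for the control diet comparison alone, with 200 genes changed by known folds. That does not test the other comparisons, or a shift shared by many genes of a library. Sums over the members carry no test. Sequences were read from NCBIM37. Mitochondrial genes were named as a whole and nuclear genes by list and by call, and the members and lists were chosen with earlier results of these data known. Lists for mitochondrial gene expression were matched by symbol or older symbol. Of the other marker lists, 2 of 9 epithelial markers were called lower and 1 of 7 macrophage and 1 of 6 endothelial markers higher on HFD in control mice. In knockout mice 1 of 10 lymphocyte markers was lower. Of 6 fat progenitor markers, 2 were lower in control and 2 higher and 1 lower in knockout mice. Of all genes, 9.32% were called in control and 9.4% in knockout mice. No marker was called between genotypes by edgeR, where 1 of 15228 genes was called on HFD and 1 of 15717 on LFD. The 18 skeletal muscle genes still had a median log2 fold change of 4.35 for knockout against control on HFD, and -0.86 on LFD. Their summed level on HFD was 128 to 2020 TPM in knockout and 55.1 to 138 in control mice. The 8 brown and beige fat markers had medians of 1.14 on HFD and -0.8 on LFD. The part of these differences in the mitochondrial values was not tested. No batch is given in the sources used here, and each library is taken as 1 mouse.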

Additional observations from a re-analysis of the deposited data

Results flagged for a closer look

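In groups of 5 the highest or lowest mouse was compared with the rest by Dixon's rule, over 68 groups of values in all, and 6 stood apart, where chance gives about 1 in 20. Knockout mouse 21 on HFD was the lowest of its group and stood apart for mt-Nd1 (7997 TPM, others 13720.0 to 15670.0), mt-Atp6 (9596 TPM, others 18000.0 to 21300.0), mt-Nd5 (463 TPM, others 874 to 997) and mt-Cytb (4919 TPM, others 9811 to 10760.0). These 4 come from 1 library, in which AC157822.1 took 11.1% of the counts, and are not independent. Knockout mouse 9 on LFD was high for mt-Nd2 (9848 TPM, others 4441 to 5771). AC157822.1 took 18.1% of the counts of control mouse 4 on LFD, against 3.24% to 7.08% in the other 4 mice.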

How the results depend on the processing

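No paired analysis was possible because no replicate number is shared between groups. In TPM in place of counts, the median share of the mitochondrial mRNAs was 23.6% and 15.1% in control mice on LFD and HFD and 20.9% and 16.2% in knockout mice. In knockout mice the number of mitochondrial genes called on HFD against LFD was 6, and was 10 with DESeq2 (1476 and 2247 of 15705 genes called in all). It was 12 with the count share of AC157822.1 as a covariate (3443 genes called in all). That alternative was chosen after seeing the data, like those for GC content, joined nuclear copies and left-out libraries with a high count share of AC157822.1. Leaving out 1 library at a time gave 4 to 7, and 7 to 12 in control mice (10 with all libraries). The median log2 fold change of the mRNAs stayed negative under all 22 alternatives in both genotypes, between -1.12 and -0.78 in control and between -0.84 and -0.51 in knockout mice. mt-Nd5, mt-Nd4, mt-Nd2 and mt-Rnr1 were called under each of these alternatives in both genotypes. Without control mouse 4 on LFD, mt-Co2 (-0.82) and mt-Nd6 (-1.10) became called in control mice, as did mt-Nd6 (-1.15) without mouse 15 on HFD and mt-Nd3 (-0.80) in knockout mice without mouse 19 on HFD. mt-Nd6 turned from -0.53 to 0.24 on HFD against LFD in knockout mice, and from 0.47 to -0.29 in knockout against control mice on LFD, without knockout mouse 9 on LFD. With 1 library left out at a time, these values ranged from -0.80 to 0.24 and from -0.29 to 0.70. Against the geometric mean of the mitochondrial mRNAs, 4 to 6 mRNAs were called in control and 3 to 6 in knockout mice when 1 library was left out. On the log2(TPM + 1) scale the median of all genes moved by 0.17 in control mice, and the mRNA median relative to it was -0.91, against -0.94 in the fit reported. The split of all calls was 676 higher and 751 lower, and 1791 and 348 on that scale. In knockout mice it was 714 and 762, and 1009 and 525. Over all genes, calls ranged from 780 to 3427 in control (1427 in the fit reported), from 570 to 3443 in knockout mice (1476), from 1 to 100 for genotype on HFD (1), from 1 to 17 on LFD (1) and from 0 to 17 for the interaction (0), and the causes were not tested.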
